A study of Rattus norvegicus with 6 samples.

Results

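Enzymes that oxidise and conjugate drugs, lipids, sterols and hormones were measured in the inner medulla of the rat kidney. This tissue includes the papilla, and its collecting ducts concentrate the urine. They were taken as every gene whose only symbol in the array's annotation is that of a cytochrome P450 with a family, subfamily and gene number, a flavin monooxygenase (FMO), a glutathione S-transferase (GST) or a cytosolic sulfotransferase (SULT). This rule found 100 of the 14168 genes with 1 symbol, namely 67 P450s, 5 FMOs, 17 GSTs and 11 SULTs, and it used no measured difference. For each gene the brightest of its probe sets by mean signal was read, and all 100 were tested, with no filter on dim signals. Of the members, 99 are protein coding in RefSeq (assembly GRCr8) and 1, Cyp2s1-ps1, is a transcribed pseudogene.

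Total RNA of 6 samples from male Sprague-Dawley rats was hybridised to 6 Affymetrix whole-transcript gene arrays, in 3 groups of 2. The withdrawal group received dDAVP, an analog of vasopressin that acts on the V2 receptor, at 40 ng/h for 5 d from a subcutaneous osmotic minipump, which was then taken out under light enflurane anaesthesia, with dissection 3 h after that. The dDAVP group received the same infusion without withdrawal. In the vehicle group the pump held saline and ran at 1 µl/h for 5 d. All rats carried a minipump and were kept in metabolic cages on a fixed amount of food with free access to water. The anaesthesia and pump removal were given for the withdrawal group only, so their part and that of the end of the infusion cannot be told apart. The labels do not say whether the arrays of a group came from separate rats. The p-values set group differences against the scatter between these arrays, which may not reflect the scatter between rats.

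P450s insert 1 atom of oxygen into their substrate. Those of the endoplasmic reticulum take electrons from cytochrome P450 reductase and those of mitochondria, such as Cyp27b1, Cyp24a1 and Cyp11b2, from adrenodoxin. FMOs oxygenate the nitrogen or sulfur of small molecules through a flavin. GSTs join glutathione to reactive compounds, and SULTs transfer sulfate to phenols, steroids and amines, which makes them soluble for excretion. In the kidney most of this chemistry is known from the proximal tubule of the cortex and outer medulla, while P450s of the Cyp2c, Cyp2j and Cyp4 groups are known in the kidney for turning arachidonic acid into epoxides and hydroxy acids that act on vessels and on salt transport.

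The arrays carried the signals of collecting duct, and those of other tubule segments as well. Aqp2, the water channel of the principal cell, had a log2 intensity of 13.23 and 13.14 in withdrawal, 13.40 and 13.30 in dDAVP and 13.16 and 13.23 in vehicle arrays, and the summed intensity of the 10 measured of 10 listed principal cell markers was 31117.8 to 35461.7 in withdrawal, 31945.7 to 34580.2 in dDAVP and 30826.9 to 34801.0 in vehicle arrays. The array medians of the linear intensity were 181 to 182 in the withdrawal group, 156 to 165 in the dDAVP group and 175 to 182 in the vehicle group. Across genes, the deviations of same-numbered vehicle and dDAVP arrays from their group means ran against each other (r = -0.62). With 2 arrays per group, vehicle replicate 1 and dDAVP replicate 2 then deviated alike, and so did the other vehicle and dDAVP arrays. This value cannot show which pair stood apart. Vehicle replicate 1 and dDAVP replicate 2 had the highest summed signal of proximal tubule markers. The summed intensity of the 18 measured of 20 listed proximal tubule markers was 3345.7 and 3212.3 in withdrawal, 2986.3 and 4579.9 in dDAVP and 4615.6 and 3895.9 in vehicle arrays. The markers did not all follow their sum. Their median log2 intensity was 7.20 and 7.21 in withdrawal, 6.99 and 7.19 in dDAVP and 7.27 and 7.16 in vehicle arrays, under the median of all genes (7.83 to 7.997), and dDAVP replicate 2 and vehicle replicate 1 were the 2 highest arrays for 5 of the 18 (Lrp2, Slc22a6, Slc22a12, Kap and Slc7a13). The share of all genes with these 2 arrays highest was not counted. Other sums did not all pair these 2 arrays. The summed intensity of 8 of 8 thick ascending limb markers was highest on dDAVP replicate 2 (11675.1) and lowest on vehicle replicate 1 (8061.8). For 9 measured of 10 listed intercalated cell markers the sums were 7418.8 and 4780.4 there. Endothelial and urothelial sums were highest on both. The median log2 intensity of the thick ascending limb markers was 9.28 to 10.08, above that of all genes. For the leading members, differences are also given below without dDAVP replicate 2 and vehicle replicate 1.

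Most members gave dim signals. The median of their mean log2 intensities was 6.93, against 7.96 for all 14168 genes, 48 of the 100 lay in the lowest 25% of all genes and 26 lay above the median of all genes. The GSTs were the bright family, with 13 of 17 above that median and 10 of 17 in the top 25% of all genes. Of the P450s 9 of 67, of the FMOs 2 of 5 and of the SULTs 2 of 11 lay above it. Probe sets differ in how brightly they report a transcript and no detection calls were used here, so these counts describe signals on the array and do not order the transcripts.

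No member changed in any of the 3 comparisons at an adjusted p under 0.05 (limma, Benjamini-Hochberg over all 14168 genes), and neither did any other gene (0.0% in each comparison). At an unadjusted p under 0.05 there were 1052, 2686 and 253 genes in dDAVP against vehicle, withdrawal against dDAVP and withdrawal against vehicle. In dDAVP against vehicle the smallest adjusted p of a member was 0.55. In withdrawal against dDAVP it was 0.26, and against vehicle 0.995. At an unadjusted p under 0.05, which at this size is a way to rank genes and no call, 1 member was higher and 11 were lower in dDAVP than in vehicle, against 0.572% and 6.85% of all genes. In withdrawal against dDAVP 21 members were higher and 2 lower, against 17.3% and 1.64% of all genes. In withdrawal against vehicle 2 were higher and 4 lower, against 0.642% and 1.14% of all genes. The 11 lower in dDAVP than in vehicle were Cyp2c23, Cyp2d2, Cyp2f4, Cyp2j3, Cyp2j4, Cyp39a1, Fmo1, Fmo2, Gstm1, Gstm6l and Gstm7, and the 4 lower in withdrawal than in vehicle were Cyp4a3, Fmo1, Fmo2 and Gstm4. The arrays of dDAVP and vehicle did not overlap for 54 members, 4 higher and 50 lower in dDAVP, against 4.8% and 40.6% of all genes. For withdrawal and dDAVP they did not overlap for 59 higher and 4 lower members, against 49.6% and 8.06%, and for withdrawal and vehicle for 30 higher and 18 lower, against 17.6% and 13.1%. Fmo5 was the member at least 1.5-fold higher than vehicle in both dDAVP and withdrawal, and Fmo2 and Cyp2j4 were at least 1.5-fold lower than vehicle in both, though in withdrawal not without its replicate 2, nor without 1 of the vehicle arrays (replicate 2 for Fmo2 and replicate 1 for Cyp2j4). Single arrays bore on most differences: with each left out in turn, 82, 58 and 80 of 100 members in the 3 comparisons changed sign or moved by over 1.5 times. In whole tissue fewer cells of a type and less RNA per cell cannot be told apart, which holds for each difference given here.

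Signals of vessel and blood cell markers were also read in the same comparisons. The summed intensity of the 9 measured of 10 listed endothelial markers was 7598.4 to 8708.5 in withdrawal, 9560.3 to 10676.4 in dDAVP and 9319.6 to 10157.6 in vehicle arrays. Withdrawal was lowest, with a median log2 difference from vehicle of -0.34 (loess -0.34) and 3 of 9 lower at an unadjusted p under 0.05 (0 after loess). Of the 14 measured of 14 macrophage and lymphocyte markers, 3 were lower in dDAVP than in vehicle (2 after loess), with a median of -0.33 (loess -0.20), and 3 were lower in withdrawal than in vehicle (3 after loess), with a median of -0.18 (loess -0.21). Their summed intensity overlapped between groups, at 8494.9 to 8746.4 in withdrawal, 7042.6 to 9311.5 in dDAVP and 7584.1 to 10018.1 in vehicle arrays. Of the 18 proximal tubule markers, 3 were lower in dDAVP than in vehicle (0 after loess), with a median of -0.21 (loess -0.06). In withdrawal against vehicle 0 were lower (1 after loess), with a median of -0.08 (loess -0.11). Of all genes, 6.85% were lower in dDAVP than in vehicle at that p (1.52% after loess). In withdrawal against vehicle it was 1.14% (1.5% after loess). None of these markers passed an adjusted p under 0.05 in limma. Whether fewer such cells entered the values of members lower than in vehicle was not tested.

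The counts of many small differences followed the brightness of the probe sets. For dDAVP against vehicle 90 of 100 members had a difference below 0, against 77.9% of all genes. For withdrawal against dDAVP 86 had one above 0, against 74.9% of all genes, and for withdrawal against vehicle 62 were above and 38 below 0, against 59.5% and 40.5%. In the lowest 25% of genes by signal, 3460 of 3542 had a dDAVP mean below the vehicle mean. There the median log2 difference of dDAVP against vehicle was -0.15 for the 48 members and -0.16 for all 3542 genes, and in withdrawal against dDAVP it was 0.21 for both. In the brightest 25% the corresponding medians over all genes were -0.03 and 0.01, and those over the 14 members there were -0.13 and -0.01. Over all genes the median differences of dDAVP against vehicle and of withdrawal against dDAVP were -0.11 and 0.14 as deposited, and -0.01 and 0.00 after cyclic loess, which aligns the arrays at each signal level. Over the members they were -0.15 and 0.16 as deposited, and -0.02 and 0.01 after loess. After loess 1 member was higher and 6 were lower in dDAVP than in vehicle at an unadjusted p under 0.05 (1.77% and 1.52% of all genes, 3.29% in either direction), 1 was higher and 3 lower in withdrawal than in dDAVP (2.92% and 3.73%, or 6.65% in either direction), and 2 were higher and 6 lower in withdrawal than in vehicle (0.649% and 1.5%). Arrays of dDAVP and vehicle then did not overlap for 17 higher and 20 lower members, against 14.1% and 16.0% of all genes, and 55 members were below 0, against 52.4%. For withdrawal and dDAVP it was 19 higher and 18 lower members (20.8% and 18.2% of all genes), with 53 above 0 (51.3%). For withdrawal and vehicle it was 21 higher and 23 lower (2128 of 14168 genes and 17.1%), with 47 above and 53 below 0 (50.2% and 49.8%). Differences given below are as deposited unless they are said to be after loess.

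**Figure D1:**
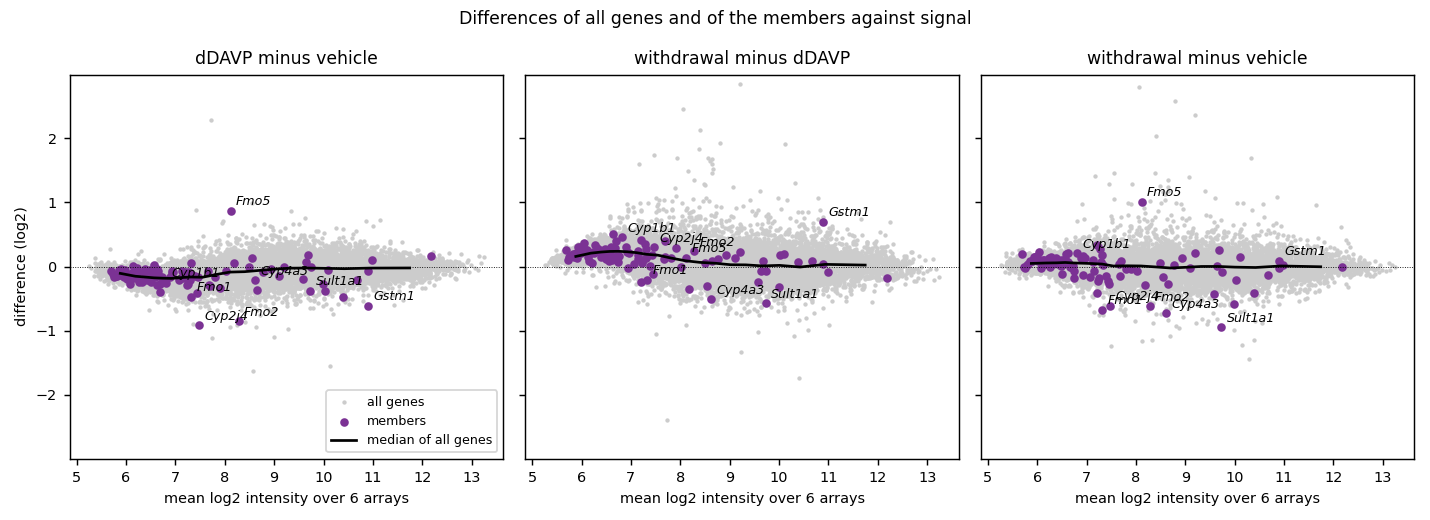
Difference between group means (log2, vertical axis) against the mean log2 intensity over the 6 arrays (horizontal axis) for all 14168 genes (grey) and the 100 members (purple), with 8 members named and the median of all genes in 20 bins of signal (black line). The black line lies below 0 on the left of the first panel and above 0 on the left of the second, where most members sit, while Fmo5, Fmo2, Cyp2j4 and Gstm1 stand off it.

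The promoters of 5 members that the results below turn on are shown here, because Fmo5 was higher and Fmo1, Fmo2, Cyp2j4 and Gstm1 were lower in dDAVP than in vehicle. RefSeq (GRCr8) windows of 250 bases before to 50 bases after the start of the gene were searched on both strands for the core of the xenobiotic response element (GCGTG), the core of the antioxidant response element (TGACNNNGC) and the full cAMP response element (TGACGTCA). Capitals mark a match, and a match is a description of the letters and no evidence of binding.
Fmo5 (chr2:187910714-187911013, plus strand): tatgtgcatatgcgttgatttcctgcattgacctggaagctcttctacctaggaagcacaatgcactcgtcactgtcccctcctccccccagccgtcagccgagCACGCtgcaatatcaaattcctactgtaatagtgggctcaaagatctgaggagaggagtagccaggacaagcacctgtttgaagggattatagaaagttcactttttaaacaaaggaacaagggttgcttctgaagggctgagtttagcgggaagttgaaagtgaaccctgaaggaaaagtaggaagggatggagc
Fmo1 (chr13:77747617-77747916, minus strand): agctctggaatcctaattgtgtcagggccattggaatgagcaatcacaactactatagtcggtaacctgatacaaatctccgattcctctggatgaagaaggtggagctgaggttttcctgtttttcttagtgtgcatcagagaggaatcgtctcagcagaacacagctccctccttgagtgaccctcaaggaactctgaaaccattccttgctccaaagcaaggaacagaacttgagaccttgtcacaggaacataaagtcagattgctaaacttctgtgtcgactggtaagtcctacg
Fmo2 (chr13:77777485-77777784, minus strand): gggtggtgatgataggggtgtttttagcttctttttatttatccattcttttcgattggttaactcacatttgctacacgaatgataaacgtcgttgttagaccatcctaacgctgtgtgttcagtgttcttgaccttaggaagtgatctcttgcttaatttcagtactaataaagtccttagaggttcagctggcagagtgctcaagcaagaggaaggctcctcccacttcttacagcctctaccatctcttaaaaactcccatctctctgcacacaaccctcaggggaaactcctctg
Cyp2j4 (chr5:116322993-116323292, minus strand): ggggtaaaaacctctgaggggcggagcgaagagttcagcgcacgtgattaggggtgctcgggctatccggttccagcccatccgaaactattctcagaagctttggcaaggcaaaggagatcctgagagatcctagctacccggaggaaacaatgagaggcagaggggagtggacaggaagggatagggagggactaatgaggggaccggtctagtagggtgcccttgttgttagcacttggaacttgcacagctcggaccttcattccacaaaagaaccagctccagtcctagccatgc
Gstm1 (chr2:198343334-198343633, minus strand): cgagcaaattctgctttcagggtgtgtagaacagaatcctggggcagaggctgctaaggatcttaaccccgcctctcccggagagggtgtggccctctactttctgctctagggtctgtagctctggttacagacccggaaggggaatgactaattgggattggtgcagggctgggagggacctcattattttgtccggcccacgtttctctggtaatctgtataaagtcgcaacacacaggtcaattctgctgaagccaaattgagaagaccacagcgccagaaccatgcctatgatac
The window of Fmo5 held 1 match to the xenobiotic core, read on the opposite strand, whose first base lay at position -146 from the start. The windows of Fmo1, Fmo2, Cyp2j4 and Gstm1 held none of the 3 motifs. Of the 81 members with a window in the table (85 windows), 23 genes had the xenobiotic core in 24 windows (28.2%), against 29.7% of all 33469 windows. The antioxidant core stood in 10 of the 85 windows (11.8%), Gstp1, Gstm7, Gsta1 and Gsta3 among them, against 12.1% of all windows. The cAMP element stood in 0 of 85, against 1.83% of all windows. The shares of members with either core were thus close to those of all promoters.

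FMOs differed from vehicle in both directions. Fmo5, whose human counterpart oxidises ketones to esters, had a log2 intensity of 8.56 and 8.45 in withdrawal, 7.9998 and 8.73 in dDAVP and 7.44 and 7.54 in vehicle arrays. Both vehicle arrays lay below the other 4, which held for 2 of 100 members and 0.805% of all genes as deposited, the other member being Cyp4f6, and for 7 members and 3.64% of all genes after loess. The group means were 8.50 ± 0.08, 8.36 ± 0.51 and 7.49 ± 0.07 (withdrawal, dDAVP and vehicle, SD, n = 2 each). In dDAVP against vehicle the log2 difference was 0.87 ± 0.23 (moderated SE), a 1.83-fold higher signal, with a limma adjusted p of 0.55. In withdrawal against vehicle it was 1.01 ± 0.23, or 2.02-fold, with an adjusted p of 0.995. Both differences were of like size after loess (0.98 and 1.00). The arrays of the dDAVP group were far apart from each other: without dDAVP replicate 2 the difference from vehicle was 0.51, and over all arrays left out in turn it ran 0.51 to 1.24. The 2 withdrawal arrays were close together, and the difference from vehicle ran 0.96 to 1.06. Withdrawal and dDAVP arrays overlapped, at a difference of 0.14 ± 0.23 (loess 0.02) whose sign turned when array medians were subtracted (-0.04) and without dDAVP replicate 1 (-0.23).

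Fmo1, the main FMO of the rat kidney, ran the other way. Its log2 intensity was 6.93 and 7.12 in withdrawal, 7.07 and 7.39 in dDAVP and 7.79 and 7.61 in vehicle arrays. Both vehicle arrays lay above the other 4, and the withdrawal and dDAVP arrays overlapped. The signal was 1.39-fold lower in dDAVP than in vehicle (log2 difference -0.47 ± 0.14, loess -0.31) and 1.60-fold lower in withdrawal than in vehicle (-0.68 ± 0.14). With each array left out in turn the second difference ran -0.77 to -0.58, and after loess it was -0.71. In withdrawal against dDAVP the difference was -0.20 as deposited and -0.40 after loess, and it was -0.36 to -0.04 over the arrays left out. That of dDAVP against vehicle was -0.63 to -0.31 over them. The limma adjusted p of dDAVP against vehicle was 0.55, that of withdrawal against vehicle 0.995 and that of withdrawal against dDAVP 0.414.

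Fmo2, best known from lung, had 8.43 and 7.88 in withdrawal, 7.83 and 8.01 in dDAVP and 8.51 and 9.03 in vehicle arrays. Again both vehicle arrays were the highest of the 6. The difference was -0.86 ± 0.24 for dDAVP against vehicle (1.81-fold lower, adjusted p 0.55) and -0.62 ± 0.24 for withdrawal against vehicle (1.53-fold lower, adjusted p 0.995). Loess left them at -0.76 and -0.63. Vehicle replicates differed by about as much as withdrawal differed from vehicle: the second difference ran -0.90 to -0.34 over the arrays left out in turn, with -0.34 without withdrawal replicate 2 and -0.36 without vehicle replicate 2. Fmo4, with 7.19 and 7.15 (withdrawal), 6.90 and 7.32 (dDAVP) and 7.50 and 7.30 (vehicle), had its highest array in the vehicle group but did not separate dDAVP from vehicle (-0.29 ± 0.16, loess -0.13, arrays left out -0.50 to -0.08). Fmo9, a dim probe set, had 6.40 and 6.46 (withdrawal), 6.08 and 6.12 (dDAVP) and 6.33 and 6.24 (vehicle). It was higher in withdrawal than in dDAVP by 0.33 ± 0.09, of which 0.15 was left after loess. Fmo4, Fmo1 and Fmo2 follow each other on chromosome 13 with no other protein-coding gene between them, whereas Fmo5 is on chromosome 2.

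**Figure D2:**
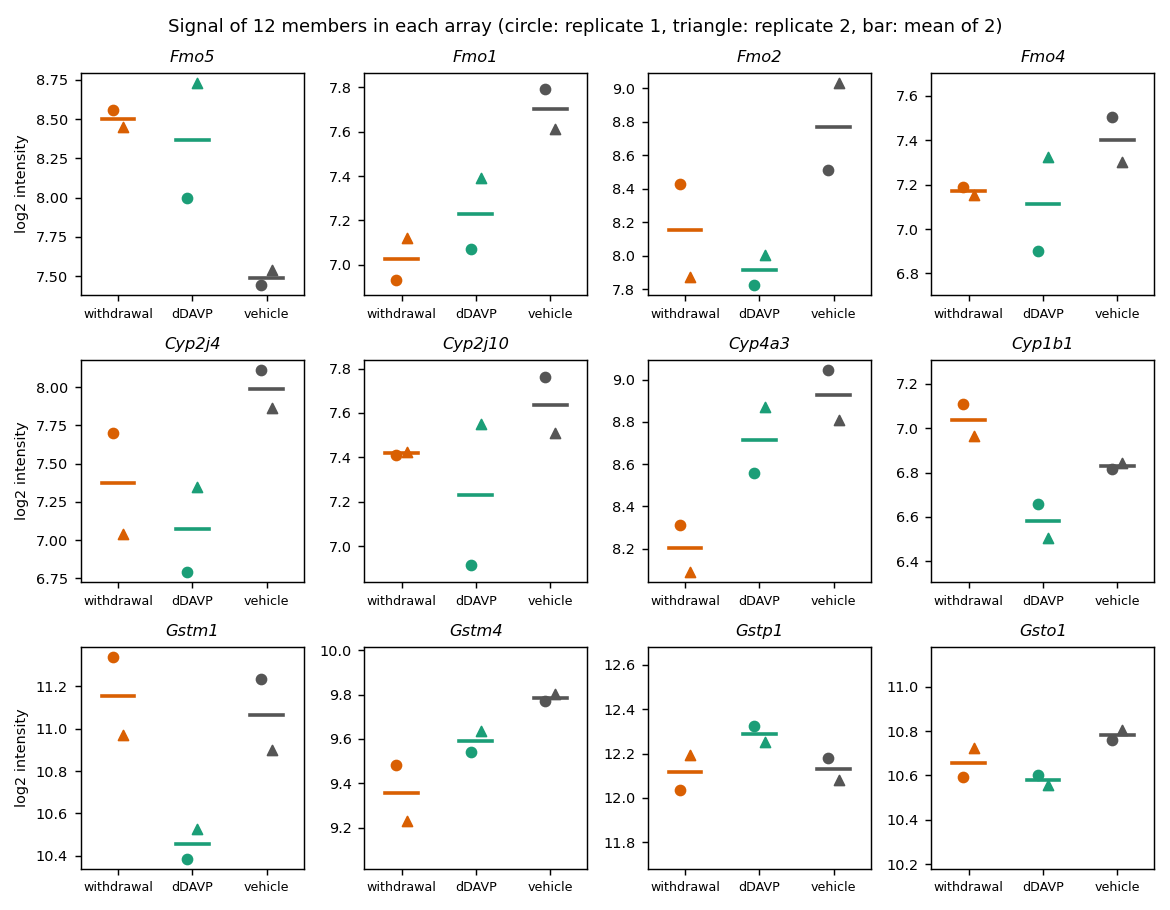
Log2 intensity (vertical axis, own scale in each panel) of 12 members on each array, for the withdrawal, dDAVP and vehicle groups, with circles for replicate 1, triangles for replicate 2 and bars for the mean of 2. Both vehicle arrays of Fmo5 sit below the other 4, at 7.44 and 7.54, and both vehicle arrays of Fmo1, Fmo2 and Cyp2j4 sit above the other 4.

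Among the P450s that make epoxides of arachidonic acid, Cyp2j4 differed most. Its log2 intensity was 7.70 and 7.04 in withdrawal, 6.79 and 7.35 in dDAVP and 8.11 and 7.86 in vehicle arrays, with both vehicle arrays above the other 4. The signal in dDAVP was 1.89-fold lower than in vehicle (-0.92 ± 0.27, adjusted p 0.55, loess -0.77), and in withdrawal it was 1.53-fold lower (-0.61 ± 0.27, adjusted p 0.995, loess -0.64). With each array left out, the first difference ran -1.19 to -0.64 and the second -0.94 to -0.28, with -0.28 without withdrawal replicate 2. Its neighbours on chromosome 5 had smaller differences between dDAVP and vehicle. Cyp2j3 had 6.85 and 6.79 (withdrawal), 6.31 and 6.54 (dDAVP) and 6.95 and 6.69 (vehicle) and a difference of -0.40 ± 0.13 (loess -0.23), and Cyp2j10 had 7.41 and 7.42 (withdrawal), 6.91 and 7.55 (dDAVP) and 7.76 and 7.51 (vehicle), where dDAVP and vehicle arrays overlapped. Its difference of -0.41 ± 0.21 (loess -0.25) rested on dDAVP replicate 1, without which it was -0.09. It was -0.28 without vehicle replicate 1 and -0.72 without dDAVP replicate 2. In withdrawal against vehicle Cyp2j3 differed by 0.00 (loess -0.05) and Cyp2j10 by -0.22 (loess -0.25). Genes of this cluster resemble each other in sequence, and how far their probes tell them apart was not tested.

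Cyp2c23, the arachidonate epoxygenase best known from rat kidney, had 7.23 and 7.22 in withdrawal, 7.04 and 7.22 in dDAVP and 7.41 and 7.40 in vehicle arrays. The vehicle arrays were the 2 highest, by a small margin: the difference of dDAVP against vehicle was -0.28 ± 0.10 and -0.11 after loess, and that of withdrawal against vehicle was -0.18 and -0.22. Of the 9 Cyp2c and Cyp2j members together 8 were below 0 in dDAVP against vehicle as deposited and 6 after loess. Cyp2c11, a male-specific form of rat liver, lay in the lowest 25% of all genes by signal at 6.16 to 6.26 on the 6 arrays, with a range of 0.10.

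Among the fatty acid hydroxylases of the Cyp4 family, Cyp4a3 had a lower signal in withdrawal than in both other groups. This omega-hydroxylase of arachidonic acid had 8.31 and 8.09 in withdrawal, 8.56 and 8.87 in dDAVP and 9.04 and 8.81 in vehicle arrays. The 2 withdrawal arrays were the lowest of the 6, and the dDAVP and vehicle arrays overlapped. Withdrawal arrays lay below dDAVP arrays for 4 members and 8.06% of all genes, and below vehicle arrays for 18 members and 13.1%. The share with both withdrawal arrays lowest or highest of all 6 was not counted. In withdrawal the Cyp4a3 signal was 1.65-fold lower than in vehicle (-0.73 ± 0.15, limma adjusted p 0.995) and 1.43-fold lower than in dDAVP (-0.51 ± 0.15, adjusted p 0.26). After loess these differences were -0.73 and -0.59, and over the arrays left out they ran -0.84 to -0.61 and -0.67 to -0.36. Cyp4a8, near it on chromosome 5, had 7.10 and 6.88 (withdrawal), 6.82 and 7.65 (dDAVP) and 7.49 and 7.31 (vehicle), with dDAVP replicates apart by more than any group means. Cyp4a1, the third member of the group, had 6.53 and 6.49 (withdrawal), 6.21 and 6.32 (dDAVP) and 6.58 and 6.37 (vehicle) and differed from vehicle by 0.04 in withdrawal (loess -0.01). The Cyp4a genes are near copies of each other, so their probes may share signal, which was not tested.

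Of the Cyp4f group, which hydroxylates leukotrienes and other lipids, Cyp4f6 was higher in withdrawal than in vehicle and Cyp4f5 was lower in withdrawal than in dDAVP. Cyp4f6 had 9.79 and 9.80 in withdrawal, 9.78 and 9.65 in dDAVP and 9.57 and 9.49 in vehicle arrays, with vehicle lowest. It was higher in withdrawal than in vehicle by 0.26 ± 0.10 (loess 0.26) and in dDAVP by 0.18 ± 0.10 (loess 0.22), a 1.20-fold and a 1.13-fold difference. Cyp4f5 had 8.10 and 7.84 (withdrawal), 8.21 and 8.43 (dDAVP) and 8.35 and 8.18 (vehicle) and differed by -0.34 ± 0.14 between withdrawal and dDAVP (loess -0.45, arrays left out -0.48 to -0.21). Cyp4f1 and Cyp4f4 differed by -0.07 and -0.17 in dDAVP against vehicle (0.07 and -0.04 after loess). Cyp4v3 was among the brighter members with 9.81 and 9.56 (withdrawal), 9.79 and 9.74 (dDAVP) and 9.58 and 9.97 (vehicle), and Cyp4b1 had 9.39 and 8.70 (withdrawal), 8.84 and 8.88 (dDAVP) and 9.17 and 8.64 (vehicle), where the replicates of withdrawal and of vehicle were further apart than any group means.

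**Figure D3:**
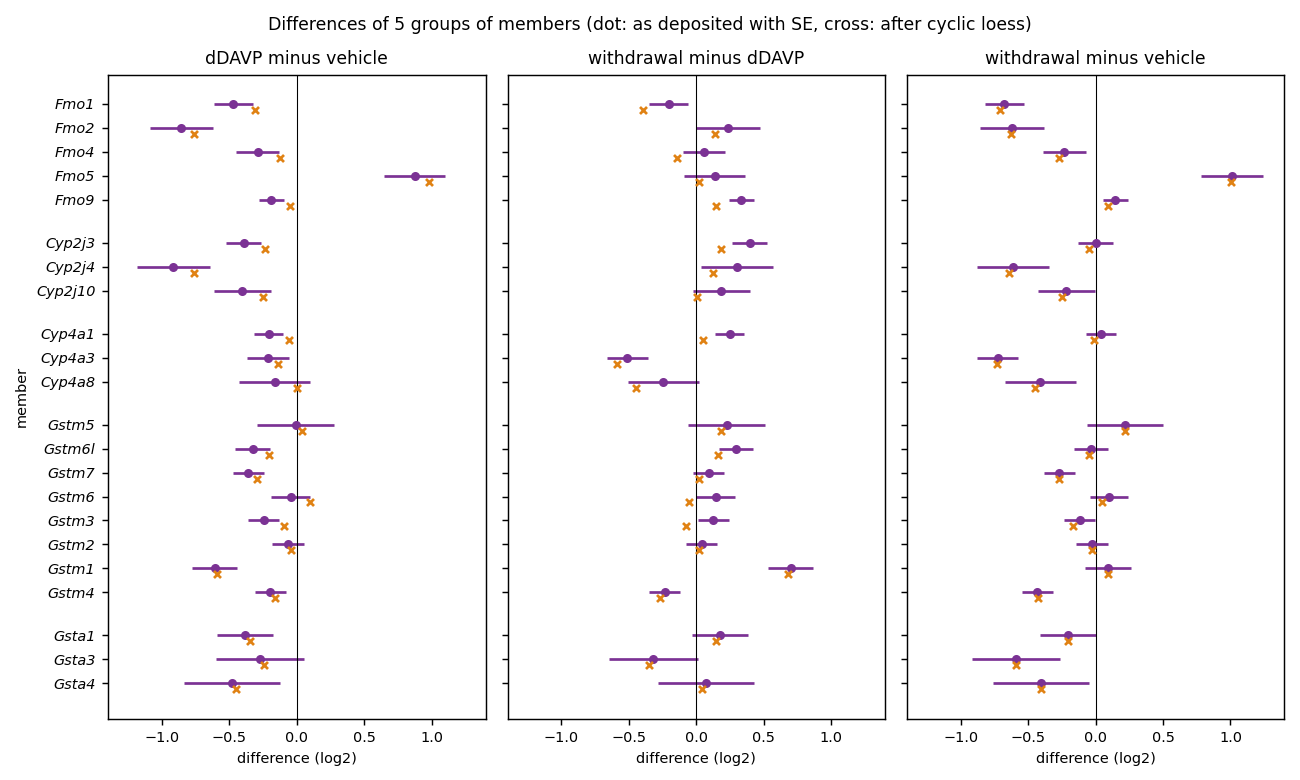
Log2 difference (horizontal axis) of 22 members in 5 groups for the 3 comparisons, as deposited (dots, with the moderated standard error) and after cyclic loess (crosses). Fmo5 stands to the right of 0 and Fmo1, Fmo2, Cyp2j4 to the left in both comparisons with vehicle, while Gstm1 lies at -0.61 in dDAVP against vehicle and at 0.09 in withdrawal against vehicle.

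P450s with defined hormonal or sterol substrates were mostly dim, with small differences between groups. Cyp27b1, which makes the active form of vitamin D, had 7.46 and 7.47 in withdrawal, 7.24 and 6.85 in dDAVP and 7.07 and 7.18 in vehicle arrays. Its withdrawal arrays were the 2 highest, by 0.42 ± 0.14 over dDAVP (loess 0.22, or 0.23 to 0.61 over the arrays left out) and 0.34 ± 0.14 over vehicle (loess 0.30). Withdrawal arrays lay above dDAVP arrays for 59 members and 49.6% of all genes, and above vehicle arrays for 30 members and 17.6%. Cyp24a1, which degrades active vitamin D, had 6.53 and 6.62 (withdrawal), 6.39 and 6.46 (dDAVP) and 6.52 and 6.44 (vehicle), and Cyp2r1, which starts its activation, had 7.47 and 7.52 (withdrawal), 7.26 and 7.01 (dDAVP) and 7.05 and 7.39 (vehicle). The sign of the dDAVP difference of all 3 turned between the deposited values and loess. Cyp39a1, an oxysterol hydroxylase, had 7.69 and 7.69 (withdrawal), 7.54 and 7.54 (dDAVP) and 7.82 and 7.84 (vehicle), with replicates in each group nearly equal and a difference of dDAVP against vehicle of -0.29 ± 0.09 (loess -0.15). Cyp27a1 and Cyp7b1, both of sterol and bile acid metabolism, differed by -0.14 ± 0.21 and -0.31 ± 0.20 in the same comparison (-0.09 and -0.17 after loess), and with arrays left out that of Cyp7b1 was -0.58 to -0.03. Cyp26b1, which clears retinoic acid, differed by -0.11 ± 0.20 (loess 0.06), and its sign and that of Cyp27a1 turned with the scaling. The 6 P450s of steroid hormone synthesis all lay below the median of all genes by signal, and in the markers of adrenal cortex, where they act, the summed intensity of 5 measured of 6 was 923.3 to 1188.7 in withdrawal, 952.6 to 1068.0 in dDAVP and 966.6 to 1019.5 in vehicle arrays. Of these, Cyp11b2, the aldosterone synthase, was higher in withdrawal than in dDAVP by 0.36 ± 0.12 and by 0.19 after loess, or 0.24 to 0.48 with arrays left out.

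Xenobiotic P450s of families 1, 2 and 3 were mostly dim probe sets that followed the dim probe sets of all genes. Cyp1b1, a target of the aryl hydrocarbon receptor, was the one with the smallest p in withdrawal against dDAVP. It had 7.11 and 6.96 in withdrawal, 6.66 and 6.5039 in dDAVP and 6.81 and 6.85 in vehicle arrays, with dDAVP lowest. The difference of withdrawal against dDAVP was 0.46 ± 0.10 (1.37-fold, adjusted p 0.26), of which 0.24 was left after loess. Cyp1a1, the textbook target of the same receptor, had 6.12 and 6.21 (withdrawal), 5.85 and 5.97 (dDAVP) and 6.29 and 6.07 (vehicle). Cyp2e1, which oxidises ethanol and other small molecules, had 7.37 and 7.46 (withdrawal), 7.12 and 7.16 (dDAVP) and 7.38 and 7.32 (vehicle), and the difference of withdrawal against dDAVP was 0.27 as deposited and 0.08 after loess. Of the 25 members of families 2 and 3 outside Cyp2c, Cyp2j and Cyp2r1, all were above 0 in withdrawal against dDAVP as deposited, beside 74.9% of all genes and 3507 of 3542 genes in the lowest 25% by signal. At an unadjusted p under 0.05, 8 of the 25 were higher, beside 17.3% of all genes. In the lowest 25% by signal 1131 of 3542 genes were higher at that p, and in the next 25% 932 of 3542. The median of the 25 members after loess was 0.03. Cyp2s1 (0.30 as deposited, 0.08 after loess), Cyp2f4 (0.28 and 0.07) and Cyp3a18 (0.31 and 0.14) are examples. The summed intensity of 8 of 8 hepatocyte markers, the cells best known for these enzymes, was 836.9 to 873.2 in withdrawal, 737.8 to 765.7 in dDAVP and 783.2 to 867.8 in vehicle arrays. Cyp20a1, a P450 with no settled substrate, was the brightest P450 probe set at 10.12 and 10.31 (withdrawal), 10.01 and 10.02 (dDAVP) and 10.03 and 10.10 (vehicle). Near copies are frequent in the Cyp2a, Cyp2b, Cyp2d and Cyp3a groups, and values of single members there are uncertain.

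Among the GSTs, Gstm1 separated the dDAVP arrays from the rest. This mu-class enzyme, one of the main glutathione conjugating enzymes of rat tissues, had a log2 intensity of 11.34 and 10.97 in withdrawal, 10.39 and 10.53 in dDAVP and 11.23 and 10.90 in vehicle arrays. Both dDAVP arrays were the lowest, which as deposited held for 40 of 100 members and 33.6% of all genes, and after loess for 8 members, Gstm1 among them, and 8.83% of all genes. In dDAVP the signal was 1.53-fold lower than in vehicle (-0.61 ± 0.17, adjusted p 0.55), and in withdrawal it was 1.62-fold higher than in dDAVP (0.70 ± 0.17, adjusted p 0.26). These are the same 2 dDAVP arrays on opposite sides of both differences. Loess left -0.59 and 0.68, and leaving out each array gave -0.78 to -0.44 and 0.52 to 0.88. Withdrawal and vehicle overlapped (0.09 ± 0.17, loess 0.09). Gstm1 was the member at least 1.5-fold higher in withdrawal than in dDAVP, a size reached by 1 of 100 members and 1.5% of all genes. Without withdrawal replicate 1 it was under that size, and without vehicle replicate 1 or dDAVP replicate 1 the lower signal in dDAVP than in vehicle was too.

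The other mu-class genes lie beside Gstm1 in a cluster on chromosome 2 that holds 8 members within 9 protein-coding genes. Of these, Gstm3 and Gstm6l also had both dDAVP arrays lowest as deposited. After loess this held for Gstm6l and not for Gstm3. Gstm6l had 7.97 and 8.02 (withdrawal), 7.59 and 7.82 (dDAVP) and 8.15 and 7.92 (vehicle). Its difference of dDAVP against vehicle was -0.33 ± 0.13 (loess -0.21, arrays left out -0.44 to -0.21). Gstm4 had 9.48 and 9.23 in withdrawal, 9.54 and 9.64 in dDAVP and 9.77 and 9.80 in vehicle arrays, with the withdrawal arrays lowest and the vehicle arrays highest. Its signal in withdrawal was 1.35-fold lower than in vehicle (-0.43 ± 0.12, adjusted p 0.995, loess -0.43), and leaving out each array gave -0.56 to -0.30. Gstm7 had 8.66 and 8.51 (withdrawal), 8.39 and 8.60 (dDAVP) and 8.90 and 8.81 (vehicle), with both vehicle arrays highest and a difference of dDAVP against vehicle of -0.36 ± 0.11 (loess -0.29). Gstm2 differed by -0.07 ± 0.12 in dDAVP against vehicle and 0.04 ± 0.12 in withdrawal against dDAVP (-0.05 and 0.02 after loess), both with signs that turned with the scaling. Gstm5 had 9.17 and 9.52 (withdrawal), 8.87 and 9.37 (dDAVP) and 9.50 and 8.76 (vehicle), with replicates of dDAVP and of vehicle further apart than any group means. As deposited 8 of 8 mu-class members were below 0 in dDAVP against vehicle, and after loess 6 of 8. Their coding sequences are much alike, and the part of shared probes in these values was not tested.

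Gstp1, the pi-class enzyme, had the brightest probe set of all members, brighter than 99.0% of genes. It had 12.03 and 12.20 in withdrawal, 12.33 and 12.25 in dDAVP and 12.18 and 12.08 in vehicle arrays. Its dDAVP arrays were both above the other 4, which as deposited held for 1 of 100 members and 3.14% of all genes. After loess this held for 8 members, Gstp1 among them, and 8.06% of all genes. The differences were small, 0.16 ± 0.10 in dDAVP against vehicle and -0.17 ± 0.10 in withdrawal against dDAVP (0.17 and -0.18 after loess). Gsto1, an omega-class enzyme with thiol transferase activity, had 10.59 and 10.72 (withdrawal), 10.60 and 10.55 (dDAVP) and 10.76 and 10.80 (vehicle) and differed by -0.20 ± 0.09 (loess -0.18) between dDAVP and vehicle, which was past an unadjusted p of 0.05 after loess and not as deposited. Gstt1 and Gstt2, of the theta class, differed by 0.10 and -0.00 in the same comparison, and Gstk1, an enzyme of mitochondria and peroxisomes, by 0.07, where loess gave 0.12, 0.08 and 0.11, and the sign for Gstt2 turned with the scaling.

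The phenol sulfotransferase Sult1a1 and the alpha-class GSTs had replicates far apart in at least 1 group. A range of over 1 on the log2 scale over the 6 arrays was seen in 7 members (3.4% of all genes), and Sult1a1 had the widest of them, with 9.59 and 8.85 in withdrawal, 8.94 and 10.64 in dDAVP and 10.76 and 9.58 in vehicle arrays. One array of each group was high and the other low: dDAVP replicate 2 and vehicle replicate 1 were the 2 highest. Its difference was -0.95 ± 0.63 for withdrawal against vehicle (loess -0.94), -0.36 without those 2 arrays or without vehicle replicate 1 alone, -0.58 without withdrawal replicate 2 and -1.54 without vehicle replicate 2. Gsta3, which also isomerises steroids in some species, had 9.76 and 9.62 in withdrawal, 9.60 and 10.42 in dDAVP and 10.66 and 9.91 in vehicle arrays. In withdrawal against vehicle its difference was -0.59 ± 0.33 (loess -0.59), but -0.21 without vehicle replicate 1 and -0.97 without vehicle replicate 2. Gsta4, which clears hydroxynonenal, had 10.11 and 10.44 (withdrawal), 9.83 and 10.58 (dDAVP) and 11.14 and 10.23 (vehicle). Gsta4 is the one member with a second probe set, whose differences were -0.50, 0.05 and -0.45 in dDAVP against vehicle, withdrawal against dDAVP and withdrawal against vehicle, beside -0.48, 0.07 and -0.41 for the probe set used. Gsta1 had 10.06 and 9.97 (withdrawal), 9.51 and 10.17 (dDAVP) and 10.22 and 10.23 (vehicle), with dDAVP replicate 1 apart from the rest.

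Of the proximal tubule markers, 5 of 18 were highest on the same 2 arrays as Sult1a1, and 13 were not. How many of all genes were highest on these 2 arrays was not counted, so 5 of 18 cannot be set against a general share. Slc7a13, an amino acid transporter of the straight proximal tubule, had 9.66 and 9.19 in withdrawal, 9.48 and 10.75 in dDAVP and 10.69 and 10.15 in vehicle arrays, and Kap, an androgen-regulated protein of the same cells, had 8.14 and 8.45 in withdrawal, 8.19 and 9.02 in dDAVP and 8.88 and 8.81 in vehicle arrays. Like Sult1a1, Gsta3 and Cyp4a8, they were higher on dDAVP replicate 2 and vehicle replicate 1 than on the other 4 arrays. So were further members of several families, among them Cyp26b1, Cyp27a1, Cyp2j10, Cyp4a3, Cyp4f5, Fmo4 and Gsta4. Whether a varying share of proximal tubule in the dissected tissue entered the values of these members was not tested. Without those 2 arrays, only replicate 1 of dDAVP and replicate 2 of vehicle were left in their groups. The differences of dDAVP against vehicle, each of 1 array against 1, were then 0.46 for Fmo5, -0.54 for Fmo1, -1.20 for Fmo2, -1.07 for Cyp2j4 and -0.51 for Gstm1. That of withdrawal against the vehicle array left was -0.61 for Cyp4a3.

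**Figure D4:**
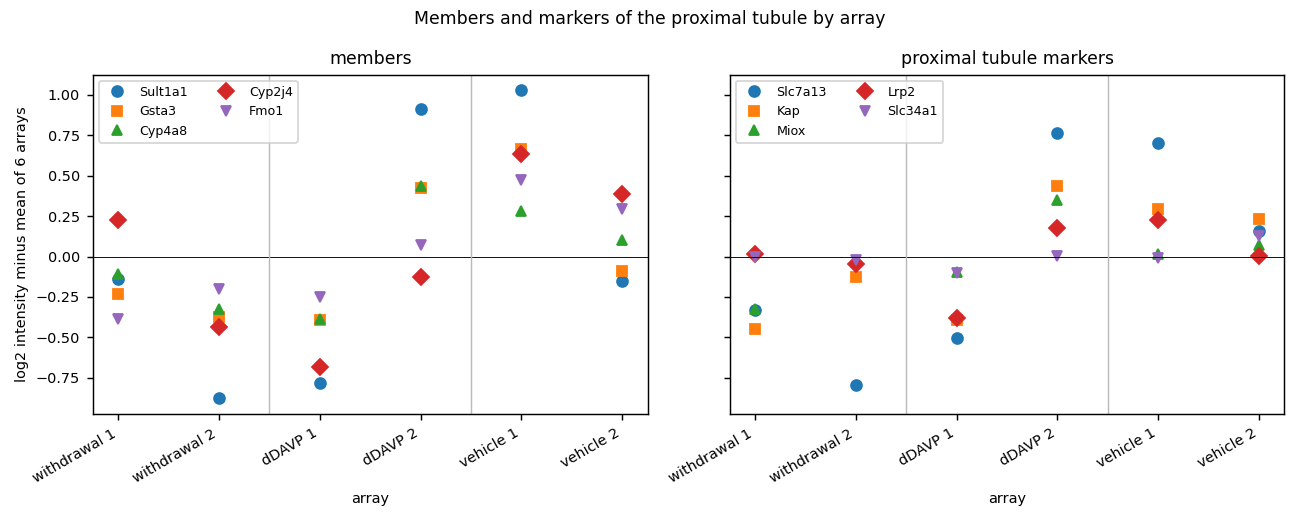
Log2 intensity minus the mean of the 6 arrays (vertical axis) on each array (horizontal axis) for 5 members (left) and 5 markers of the proximal tubule (right). Sult1a1 and Slc7a13 are highest on dDAVP replicate 2 and vehicle replicate 1 and lowest on withdrawal replicate 2, while Fmo1 is high on both vehicle arrays.

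Of the other sulfotransferases, Sult2b1 had a signal above the median of all genes. Sult1b1, which sulfonates thyroid hormones, had 6.36 and 7.38 (withdrawal), 6.25 and 6.48 (dDAVP) and 6.78 and 6.53 (vehicle), its range of 1.13 resting on withdrawal replicate 2. Sult1c2 had 7.27 and 7.38 (withdrawal), 7.07 and 7.82 (dDAVP) and 7.65 and 7.55 (vehicle), with the dDAVP replicates further apart than any group means. Sult2b1, which sulfonates cholesterol and related sterols, had 8.57 and 8.20 (withdrawal), 8.56 and 8.83 (dDAVP) and 8.61 and 8.51 (vehicle). It differed by -0.31 ± 0.16 between withdrawal and dDAVP (loess -0.39). With arrays left out this difference was -0.50 to -0.12, smallest without withdrawal replicate 2. After loess both dDAVP arrays lay above the other 4, as for 8 of 100 members and 8.06% of all genes. Sult1d1 and Sult4a1, a brain form with no settled substrate, differed by -0.08 and -0.16 in dDAVP against vehicle and changed sign after loess (0.06 and 0.01).

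Reading the 3 groups together, both vehicle arrays lay above the other 4 for 11 members (4.71% of all genes): Cyp2c23, Cyp2d2, Cyp2d5, Cyp2j4, Cyp39a1, Fmo1, Fmo2, Gsta1, Gstm4, Gstm7 and Gsto1. After loess there were 10 such members (4.25% of all genes), of which 8 (Cyp2c23, Cyp2j4, Cyp39a1, Fmo1, Fmo2, Gstm4, Gstm7 and Gsto1) were in both sets. No p is attached to these counts, which share the 2 vehicle arrays, and the members are no independent samples. At least 1.5-fold differences of dDAVP against vehicle were 1 higher (Fmo5, 0.134% of all genes) and 3 lower (Cyp2j4, Fmo2 and Gstm1, 0.332%). For withdrawal against vehicle they were 1 higher (Fmo5, 0.649%) and 6 lower (Cyp2j4, Cyp4a3, Fmo1, Fmo2, Gsta3 and Sult1a1, 0.423%). With each array left out in turn, Cyp2j4 and Fmo2 in dDAVP against vehicle and Fmo5 and Cyp4a3 in withdrawal against vehicle stayed at least 1.5-fold. Each other one was under 1.5-fold without at least 1 array. For withdrawal against vehicle these were Cyp2j4, Gsta3 and Sult1a1 (without vehicle replicate 1 or withdrawal replicate 2), Fmo2 (without replicate 2 of either group) and Fmo1 (without withdrawal replicate 1), and for dDAVP against vehicle Fmo5 (without dDAVP replicate 2) and Gstm1 (without vehicle replicate 1 or dDAVP replicate 1). The 2 comparisons share the vehicle arrays.

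**Figure D5:**
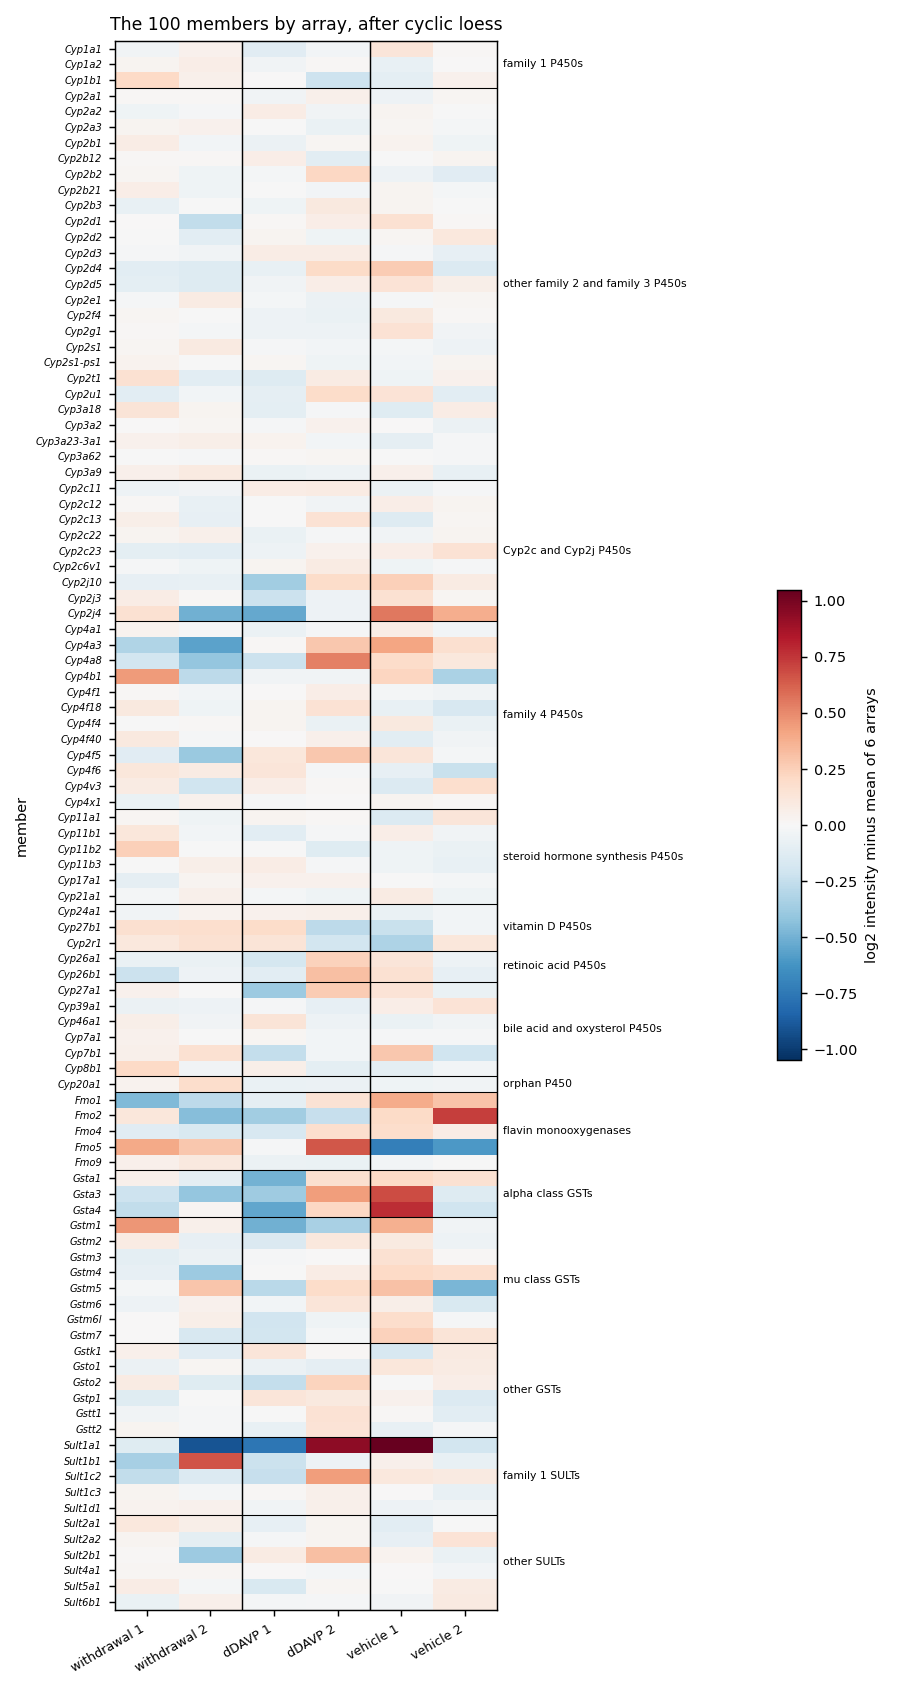
Log2 intensity after cyclic loess minus the mean of the 6 arrays (colour, red above and blue below) for all 100 members (rows, in groups of role) on each array (columns). Fmo5 is blue on both vehicle arrays, Fmo1, Fmo2 and Cyp2j4 are red there, and most dim P450s are near white on every array.

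The partners of these enzymes were read from 6 lists. Of 26 measured of 28 listed electron donors, epoxide hydrolases and reductases, 0 were higher or lower at an unadjusted p under 0.05 in dDAVP against vehicle, 3 were higher and 1 lower in withdrawal against dDAVP, and 1 was higher in withdrawal against vehicle. After loess the counts were 0, then 1 higher and 2 lower, then 1 higher. Hmox2, a haem oxygenase, differed by 0.51 and Akr7a2, an aldehyde reductase, by -0.55 on the log2 scale in withdrawal against dDAVP, with loess values of 0.42 and -0.59. Ephx3, a further epoxide hydrolase, was at 0.34 there and at 0.24 in withdrawal against vehicle (loess 0.12 and 0.20).

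Of 33 measured of 35 genes of glutathione supply and targets of Nrf2, the sensor of electrophiles, 0 were past that p in dDAVP against vehicle, 6 were higher and 1 lower in withdrawal against dDAVP, and 1 was higher and 1 lower in withdrawal against vehicle. After loess 1 was higher in dDAVP against vehicle, 3 were higher and 3 lower in withdrawal against dDAVP, and 1 was higher and 1 lower in withdrawal against vehicle. Nfe2l2, which encodes Nrf2, had 11.21 and 11.13 in withdrawal, 10.75 and 10.63 in dDAVP and 10.67 and 11.15 in vehicle arrays, a difference of withdrawal against dDAVP of 0.48 as deposited and 0.46 after loess. Gpx2, a glutathione peroxidase, differed by 0.43 and Chac1, which degrades glutathione, by 0.40 in the same comparison (0.41 and 0.18 after loess). In withdrawal against vehicle, Mafg, the partner of Nrf2 on DNA, differed by 0.33 and Lancl1, a glutathione-binding protein, by -0.41 (loess 0.34 and -0.41).

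Of 21 measured of 26 sensing receptors and partners, 1 was higher and 1 lower in dDAVP against vehicle, 4 were higher and 1 lower in withdrawal against dDAVP, and 0 were past that p in withdrawal against vehicle. These counts turned over after loess, to 2 higher in dDAVP against vehicle, 4 lower in withdrawal against dDAVP and 1 lower in withdrawal against vehicle. Nr1h2, an oxysterol receptor, had 9.41 and 9.46 in withdrawal, 9.92 and 9.74 in dDAVP and 9.56 and 9.46 in vehicle arrays, with both dDAVP arrays highest, at 0.32 over vehicle and -0.39 for withdrawal against dDAVP (loess 0.36 and -0.43). Rxrg, a retinoid X receptor, differed by -0.28 and 0.32 and Nr1i3, the constitutive androstane receptor, by 0.29 in withdrawal against dDAVP, values of dim probe sets that were -0.13, 0.12 and 0.09 after loess.

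Of 18 measured of 23 genes of sulfate supply and of methyl, acetyl and acyl conjugation, 2 were lower in dDAVP against vehicle (Tpmt, a thiol methyltransferase, at -0.36 and Slc26a1, a sulfate transporter, at -0.26, with -0.32 and -0.09 after loess). In withdrawal against dDAVP 1 was higher (Slc26a1, 0.35, loess 0.13), and in withdrawal against vehicle 2 were lower (Slc26a2, a sulfate transporter, -0.28, and Hnmt, a histamine methyltransferase, -0.48, with -0.32 and -0.53 after loess). After loess the list had 1 lower in dDAVP against vehicle, 0 higher and 3 lower in withdrawal against dDAVP and 3 lower in withdrawal against vehicle. Of 10 measured of 23 genes of the UDP-glucuronosyltransferase family (Ugt8, which transfers galactose, included) and of UDP-sugar supply (Ugdh and Ugp2), 1 was past that p, Ugt2a1 in withdrawal against dDAVP (0.27, loess 0.10). Of 24 measured of 28 transporters of drugs and conjugates, 1 was lower in dDAVP against vehicle (Slc22a2, the organic cation transporter of the proximal tubule, -0.45, loess -0.30), 1 was higher in withdrawal against dDAVP (Abcc6, 0.25, loess 0.04), and in withdrawal against vehicle 1 was higher and 3 lower, namely Abcb1b, a multidrug exporter, at 0.33 and then Slco1a6, an organic anion carrier (-0.73), Slc22a2 (-0.43) and Abcc5 (-0.27). Loess gave 0.29, -0.76, -0.46 and -0.27 for these, and counts of 0 in dDAVP against vehicle, 1 lower in withdrawal against dDAVP and 3 lower in withdrawal against vehicle. As deposited, none of the 6 lists held a gene at an adjusted p under 0.05 in limma. Their counts stand beside 7.43%, 19.0% and 1.79% of all genes in either direction at the same unadjusted p as deposited, and 3.29%, 6.65% and 2.15% after loess, in the order in which the 3 comparisons were given.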

How the data were processed

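The deposited values are linear intensities per probe set on 6 Affymetrix arrays, made by the authors with RMA, per the submitters' processing notes. RMA corrects background, normalises between arrays and summarises the probes of a set, in a version and with settings not given in the sources used here. Judged by their size the values are linear. Log2 of the deposited intensity was taken with no further scaling. Genes were named from GEO's platform annotation (14947 of 28524 probe sets with 1 symbol, 318 with several, 13259 not listed), and each of 14168 genes was read from its brightest probe set. One limma fit (limma 3.58.1, R 4.3.3) over all 6 arrays gave 3 differences with moderated standard errors, and p-values were adjusted over all genes by Benjamini-Hochberg. The fit was also run on simulated data with independent noise on each array. That run did not cover shifts shared between arrays, and nothing is drawn from it here. Cyclic loess, array medians, quantile normalisation, a filter on dim genes, a mean over probe sets, a replicate block, other fits and arrays left out were alternatives. The number of arrays, 2 per group, limits the precision.

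Members and lists were chosen with earlier results of these data known. Members named with values were the 15 brightest, those with up to 10 of the smallest p-values in each comparison, the 8 with the widest range and 43 measured of 47 fixed examples of role. Outside this rule, Cyp4f5 and Gstm6l are also given with values, and the text names a few others as members of a counted set. From each list up to 3 genes with the smallest p in each comparison were named. Promoters came from RefSeq (GRCr8). Probe sets shared by several genes were left out of the tests, and the replicate arrays of no group held identical values.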

Additional observations from a re-analysis of the deposited data

How the results depend on the processing

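No member passed an adjusted p under 0.05 in any setting run, and counts at an unadjusted p under 0.05 depended on the scaling and on single arrays. Shares in parentheses are those of all genes tested in the same setting. For dDAVP against vehicle, 1 member was higher (0.572%) and 11 lower (6.85%) as deposited. Array medians subtracted gave 4 higher (4.08%) and 4 lower (0.671%), cyclic loess 6 lower (1.52%), quantile normalisation 6 lower (1.62%), only the 2 groups compared 7 lower (4.065%) and a prior that follows the level 21 lower (11.3%). The median member difference of -0.15 was -0.0003 with array medians subtracted, -0.0178 after loess and -0.0182 after quantile normalisation. Leaving out each array gave 0 to 1 higher, 2 to 19 lower and a median of -0.22 to -0.09. There were 2 lower when replicate 1 of vehicle (3.54%) or of dDAVP (2.11%) was out, 18 when vehicle replicate 2 was out (10.6%), 19 when dDAVP replicate 2 was out (9.35%) and 7 when either withdrawal array was out (4.065%).
For withdrawal against dDAVP, 21 were higher (17.3%) and 2 lower (1.64%). The higher were 1 with array medians subtracted (1.38%), 1 after loess (2.92%), 1 after quantile normalisation (3.035%) and 4 without the lowest 25% by signal (9.505%), while the prior that follows the level gave 33 (23.3%). There were 7 lower with array medians subtracted (10.04%), 1 without the lowest 25% (1.70%), 1 with only the 2 groups (1.57%), 1 with that prior (1.15%) and 0 without vehicle replicate 1 and dDAVP replicate 2 (2.22%). The median of 0.16 was -0.0161 with array medians subtracted, 0.0108 after loess and 0.0104 after quantile normalisation. Leaving out each array gave 5 to 26 higher, 0 to 7 lower and a median of 0.13 to 0.23. The higher were 5 without withdrawal replicate 1 (9.04%) or 2 (4.785%) and 7 without dDAVP replicate 1 (7.79%). The lower were 7 without dDAVP replicate 1 (3.67%), 4 without withdrawal replicate 1 (2.05%), 1 when a vehicle array was left out (1.57%), and 0 when replicate 2 of dDAVP (1.91%) or of withdrawal (0.671%) was left out.
For withdrawal against vehicle, 2 were higher (0.642%) and 4 lower (1.14%). There was 1 higher with array medians subtracted (0.325%) and 1 without the lowest 25% (0.471%), and 5 with the prior that follows the level (1.35%) and without the 2 arrays named above (0.967%). There were 7 lower with array medians subtracted (2.39%), 7 after quantile normalisation (1.57%) and 8 with only the 2 groups (1.955%). The median of 0.04 was -0.0358 without the lowest 25%. Leaving out each array gave 2 to 3 higher, 2 to 8 lower and a median of -0.02 to 0.09, with 8 lower without either dDAVP array (1.955%) and 2 without withdrawal replicate 2 (0.452%). Over all genes 2 passed an adjusted p under 0.05 in limma without dDAVP replicate 1, in dDAVP against vehicle and in withdrawal against dDAVP, and 0 to 2 over all arrays left out.
The replicate numbers did not pair the arrays: same-numbered deviations correlated at -0.62 for dDAVP and vehicle, -0.11 for withdrawal and dDAVP, and -0.002 for withdrawal and vehicle. With the replicate number as a block, 1 member was higher (0.318%) and 7 lower (3.14%) in dDAVP against vehicle, 8 higher (9.61%) and 1 lower (1.10%) in withdrawal against dDAVP, and 1 higher (0.402%) and 3 lower (0.501%) in withdrawal against vehicle. The cause of these shifts was not tested. The signs of 19, 15 and 7 of 52 named members differed between scalings in the 3 comparisons. With 2 arrays per group, small differences of dim members could not be resolved.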

Other observations

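Probe sets that the annotation gives to several genes were left out of the tests and are given here as values. A probe set shared by Gsta5 and Gsta2, alpha-class GSTs, had a log2 intensity of 7.95 and 8.03 in withdrawal, 8.17 and 8.55 in dDAVP and 8.46 and 8.35 in vehicle arrays. A second one had 7.58 and 7.66 in withdrawal, 7.85 and 7.97 in dDAVP and 8.01 and 7.94 in vehicle arrays. In both, the 2 withdrawal arrays were the lowest of the 6, a pattern whose share over all genes was not counted. A probe set shared by Sult1c2a and Sult1c2 had 7.23 and 7.35 in withdrawal, 6.97 and 7.61 in dDAVP and 7.59 and 7.49 in vehicle arrays, with the dDAVP replicates further apart than the group means. A second probe set of Sult1c2a and Sult1c2 had 7.64 and 7.64 in withdrawal, 7.36 and 8.01 in dDAVP and 8.03 and 7.89 in vehicle arrays, with dDAVP replicates far apart here too. The 2 further ones were dim: that of Sult2a2 and Sult2a6 had 5.88 and 5.93 in withdrawal, 5.79 and 5.75 in dDAVP and 5.80 and 5.81 in vehicle arrays, and that of Sult1e1, listed under 2 entries of the same symbol, had 5.72 and 5.80 in withdrawal, 5.61 and 5.57 in dDAVP and 5.73 and 5.61 in vehicle arrays.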
